A study of Mus musculus with 8 samples.

Results

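The miR-26 family was followed across the sorted cell populations of the mouse thymus. Its members were taken by name, as the probes for mmu-miR-26a and mmu-miR-26b, and they are 2 of the 1040 mouse miRNA probes named in the deposited table. RNA was measured on 8 single-colour microarrays of 1 slide, of which 3 carried CD45+ cells, 2 cortical thymic epithelial cells (cTECs) and 3 medullary thymic epithelial cells (mTECs). The CD45+ cells, the thymocytes and other blood-derived cells, were the reference population of the study. All cells were isolated by flow sorting from untreated female NOD wildtype mice aged 4 weeks. Each isolation pooled the thymi of 10 to 12 animals, so each array reports a pool of mice and not 1 mouse. The paper does not say whether the arrays of a population came from separate pools. The p-values therefore measure the spread between arrays.

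MicroRNAs are short RNAs that direct the repression of messenger RNAs, chiefly through the bases 2 to 8 of their 5′ end, the seed. The miR-26 family is encoded inside the genes of the small C-terminal domain phosphatases (Ctdspl, Ctdsp2 and Ctdsp1) and is expressed in most tissues. The family is known as a brake on growth: the oncogene MYC represses it, and Ezh2 is among its established targets. In the thymus, loss of the miRNA-processing enzyme Dicer from epithelial cells disturbs the architecture of the organ.

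The 2 mature sequences are printed first because they fix what each probe can report. In the RefSeq annotation of GRCm38.p6, both members had an entry, and capitals mark the seed.
mmu-miR-26a-5p: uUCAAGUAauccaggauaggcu
mmu-miR-26b-5p: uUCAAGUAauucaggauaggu
The seed UCAAGUA was shared by both members and by 0 other of the 1679 mature mouse sequences compared. Among the targets of the 1040 mouse probes, it was likewise held by these 2 alone.

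Along the 21 bases of miR-26b, the members were identical at 19. Counted from 1 at the 5′ end of miR-26a, the substitutions were C11U and C21U, and miR-26a carried 1 further base at its 3′ end. In the next lines capitals mark the 2 substituted bases.
mmu-miR-26a-5p: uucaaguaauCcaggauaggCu
mmu-miR-26b-5p: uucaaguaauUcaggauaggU

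The array probes are DNA oligonucleotides complementary to the whole mature strand, shown because the members differ by so few bases. Capitals mark the part that pairs with the miRNA, 22 bases for miR-26a and 21 for miR-26b.
mmu-miR-26a probe: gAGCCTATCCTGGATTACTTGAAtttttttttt
mmu-miR-26b probe: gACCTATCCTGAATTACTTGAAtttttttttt
Binding of 1 member to the probe of the other was not tested.

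The mature miR-26a lies at chr9:119031811-119031832 in Mir26a-1 and at chr10:126995543-126995564 in Mir26a-2, both on the plus strand. The miR-26a probe therefore reads the product of both loci and cannot tell them apart. The mature miR-26b lies at chr1:74394324-74394344 on the plus strand, in Mir26b. Each hairpin lies inside the span of a protein-coding gene, Mir26a-1 in Ctdspl, Mir26a-2 in Ctdsp2 and Mir26b in Ctdsp1, and whether these stretches are exonic or intronic was not analysed here. The hairpins are printed with the mature strand in capitals, because the miR-26a loci differ only outside it.
Mir26a-1: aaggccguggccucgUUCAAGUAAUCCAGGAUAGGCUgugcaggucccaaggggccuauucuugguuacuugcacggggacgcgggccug
Mir26a-2: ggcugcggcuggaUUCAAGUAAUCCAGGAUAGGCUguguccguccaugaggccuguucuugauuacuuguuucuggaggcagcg
Mir26b: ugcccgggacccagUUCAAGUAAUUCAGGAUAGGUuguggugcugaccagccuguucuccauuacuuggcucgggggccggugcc

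The arrays differed in brightness. By the scanner's flag, taken on most of a probe's spots, 169 to 229 of the 1040 mouse probes were well above background in CD45+ cells, 236 to 325 in mTECs and no more than 122 in cTECs (98 on replicate 2). The 75th percentile of the 65 probes well above background on all 8 arrays was 2909.8 and 1364 on the cTEC arrays and between 4213 and 11503 on the others. Each array was divided by this percentile, and the result is called the scaled signal, in arbitrary units. The dimmest array, cTEC replicate 2, therefore had the highest detection limit, a scaled signal of 621, and this value was the floor for all arrays in the limma fit (9.28 on the log2 scale).

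The sorted populations were checked against marker miRNAs. The summed scaled signal of 7 epithelial miRNAs (5 of the miR-200 family, with miR-205 and miR-203) ran from 36799.5 to 39058 on the mTEC arrays, from 4442 to 8619.8 on the cTEC arrays and from 623 to 704 on the CD45+ arrays. All 7 were well above background on every mTEC array. On the cTEC arrays 3 of 7 were, and miR-429 and miR-203 were not on either. The 6 leukocyte miRNAs summed to between 24259 and 28136 in CD45+ cells, 4131 and 5103 in cTECs and 3216 and 4619 in mTECs. Such sums include signals not well above background. On cTEC replicate 2 these were 599.99 for miR-142-3p, 383 for miR-142-5p and 597 for miR-223. Of the 6 leukocyte miRNAs, miR-150, miR-155 and miR-181a were well above background on both cTEC arrays, and miR-142-3p, miR-142-5p and miR-223 on neither. The detection limits were 342 and 621 on the cTEC arrays, where miR-142-3p read 306 and 599.99, and 67.0 to 222.9 on the mTEC arrays. Detection of miR-142-3p can therefore not be compared between them. It was well above background on all 3 mTEC arrays, with a scaled signal of 299.9 to 549.5 against 2792 to 5553 on the CD45+ arrays. Mesenchymal miRNAs (5 measured) were well above background in no CD45+ array and summed to between 2232 and 5117 on the cTEC arrays and between 6294 and 6660.5 on the mTEC arrays. These sums were mostly miR-143 and miR-145: miR-199a-3p and miR-199a-5p were well above background on 0 arrays, miR-214 on 2 mTEC arrays alone and miR-145 on 1 of the 2 cTEC arrays.

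miR-26a was the bright member and had its highest signal in CD45+ cells, an intermediate signal in mTECs and its lowest in cTECs. On all 8 arrays its 5 spots each passed the scanner's background test. Its scaled signal in CD45+ cells was 4434, 4663 and 3990.5, with a mean of 4363 ± 342 (SD, n = 3). In mTECs it was 2736, 2772 and 2725, a mean of 2744 ± 24.6 (SD, n = 3). In cTECs it was 1745 and 888, a mean of 1317 ± 606 (SD, n = 2). Every CD45+ array lay above every mTEC array, and every mTEC array lay above both cTEC arrays. Such separation was common: of the 309 miRNAs tested, 29.8% had the first order and 29.1% the second. The share with both was not counted.

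The spread of miR-26a differed between the populations. Its SD on the log2 scale was 0.12 in CD45+ cells, 0.68 in cTECs and 0.0145 in mTECs. Among the 65 probes well above background on all arrays, 35 had a smaller SD than miR-26a in CD45+ cells, 55 in cTECs and 8 in mTECs. The 5 spots of 1 array varied by a coefficient of variation of 5.66% to 14.9%. The 2 cTEC arrays thus differed by more than the spots within either, and cTEC replicate 2 was the lower.

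Before scaling, the processed signal of miR-26a in CD45+ cells was 8121, 9211 and 5750.2, in mTECs 5449, 2022 and 3023 and in cTECs 879 and 209.7. On this scale too both cTEC arrays were the lowest, and every CD45+ array lay above every mTEC array. The cTEC arrays were the dimmest before scaling, so their low place here is not separate evidence on miR-26a. With no normalization, 111 miRNAs were called lower in cTECs than in CD45+ cells and 2 higher. The closeness of the 3 mTEC arrays was seen only after scaling.

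**Figure D1:**
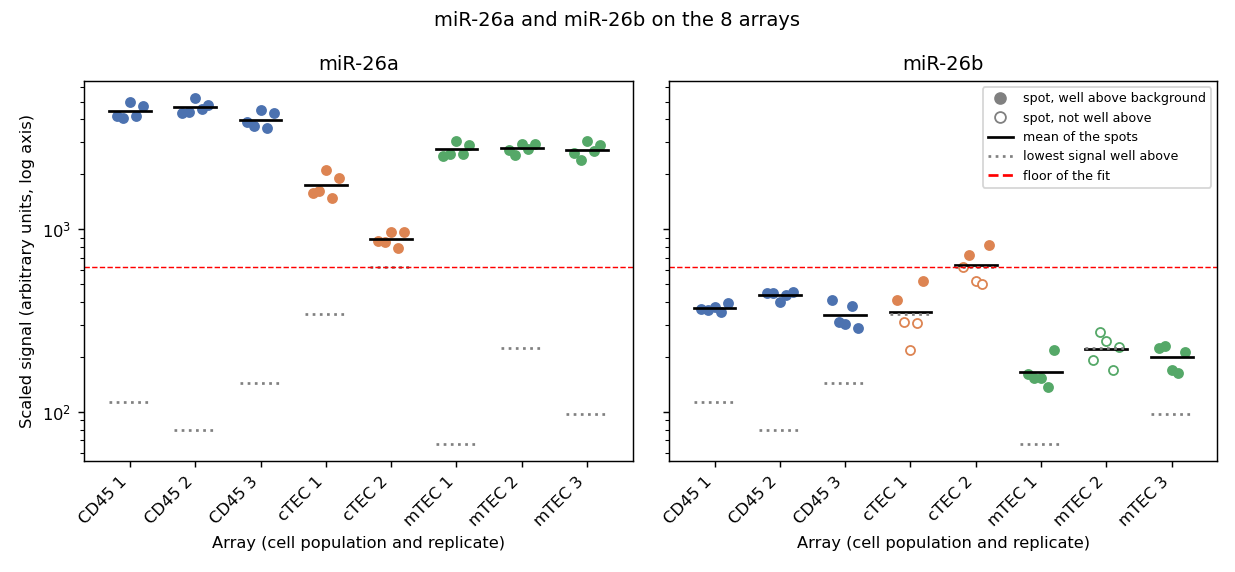
Scaled signal (arbitrary units, log axis) of each spot of the miR-26a probe (left) and the miR-26b probe (right) on the 8 arrays; filled points were well above background, the black bar is the mean of the spots, the dotted bar the lowest signal well above background on that array and the dashed line the floor of 621. The array means of miR-26a lie above the floor, between 888 and 4663, as do all its spots, from 789 to 5213; the array means of miR-26b lie below it on all but cTEC replicate 2, where 2 of 5 spots are also below.

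The comparison of cTECs with CD45+ cells asks how the cortical epithelium differs from the blood-derived cells it supports. miR-26a was lower in cTECs by 1.81 on the log2 scale, a 3.51-fold difference. In the limma fit its log2 difference, cTEC minus CD45+, was -1.81 (SE 0.26, 95% interval -2.46 to -1.16, adjusted p = 0.00250 by Benjamini-Hochberg over the 309 miRNAs tested). Of those 309 miRNAs, 30.7% were called in this comparison in either direction and 20.1% were called lower in cTECs. On the scaled signal, 30.1% had both cTEC arrays below every CD45+ array, as miR-26a did. The exact permutation test on the arrays, two-sided, gave p = 0.1, the smallest that 2 arrays against 3 allow. The direction and the call held in all 25 alternatives, but the size depended on the scaling and on the dim array. It was -3.65 with the percentile over all mouse probes, -4.12 with no normalization, -0.91 after quantile normalization and -0.90 in the deposited table. Without cTEC replicate 2 it was -1.33, and with scaling, floor and filter also set again without that array, -0.85.

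The comparison of the epithelial populations with each other gave a log2 difference, mTEC minus cTEC, of 1.15 for miR-26a (SE 0.26, 95% interval 0.49 to 1.80, limma adjusted p = 0.0261). This is a 2.21-fold higher signal in mTECs. In the same comparison 22.7% of the 309 miRNAs were called, with 16.2% of the 309 called higher in mTECs, and 29.1% had every mTEC array above both cTEC arrays. The exact permutation p was 0.1, again the smallest possible for 3 arrays against 2. The call was lost when any CD45+ or mTEC array was left out (adjusted p = 0.0502 to 0.0777) and under quantile normalization (log2 difference 0.45, adjusted p = 0.301). It was also lost with the percentile over all mouse probes (2.15, adjusted p = 0.136), in the deposited table (0.56, adjusted p = 0.136), with dim probes kept (adjusted p = 0.105), in the fit of the 2 populations alone (adjusted p = 0.115) and under the replicate block (adjusted p = 0.0716). With no normalization it was kept at 2.89 (adjusted p = 0.0266), and with normexp, another background correction, at 0.74 (adjusted p = 0.0231). Without cTEC replicate 2 the log2 difference was 0.66, and without cTEC replicate 1 it was 1.63.

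The comparison of mTECs with CD45+ cells gave no call for miR-26a, although the arrays did not overlap. The log2 difference, mTEC minus CD45+, was -0.66 (SE 0.24, 95% interval -1.25 to -0.083, unadjusted p = 0.0315, limma adjusted p = 0.116), or a ratio of 0.631. In this comparison 23.9% of the miRNAs were called, and 29.8% had every mTEC array below every CD45+ array on the scaled signal, as miR-26a did. The exact permutation p was 0.1, the smallest that 3 arrays against 3 allow. The shared estimate of the spread includes the cTEC arrays: in the fit of these 2 populations alone, the SE was 0.0641 and the adjusted p was 0.00110. The value also depended on which arrays set the scaling, because with the cTEC arrays left out of scaling, floor and filter it was -0.048 (adjusted p = 0.612) and the arrays overlapped, a setting chosen after the data were seen.

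**Figure D2:**
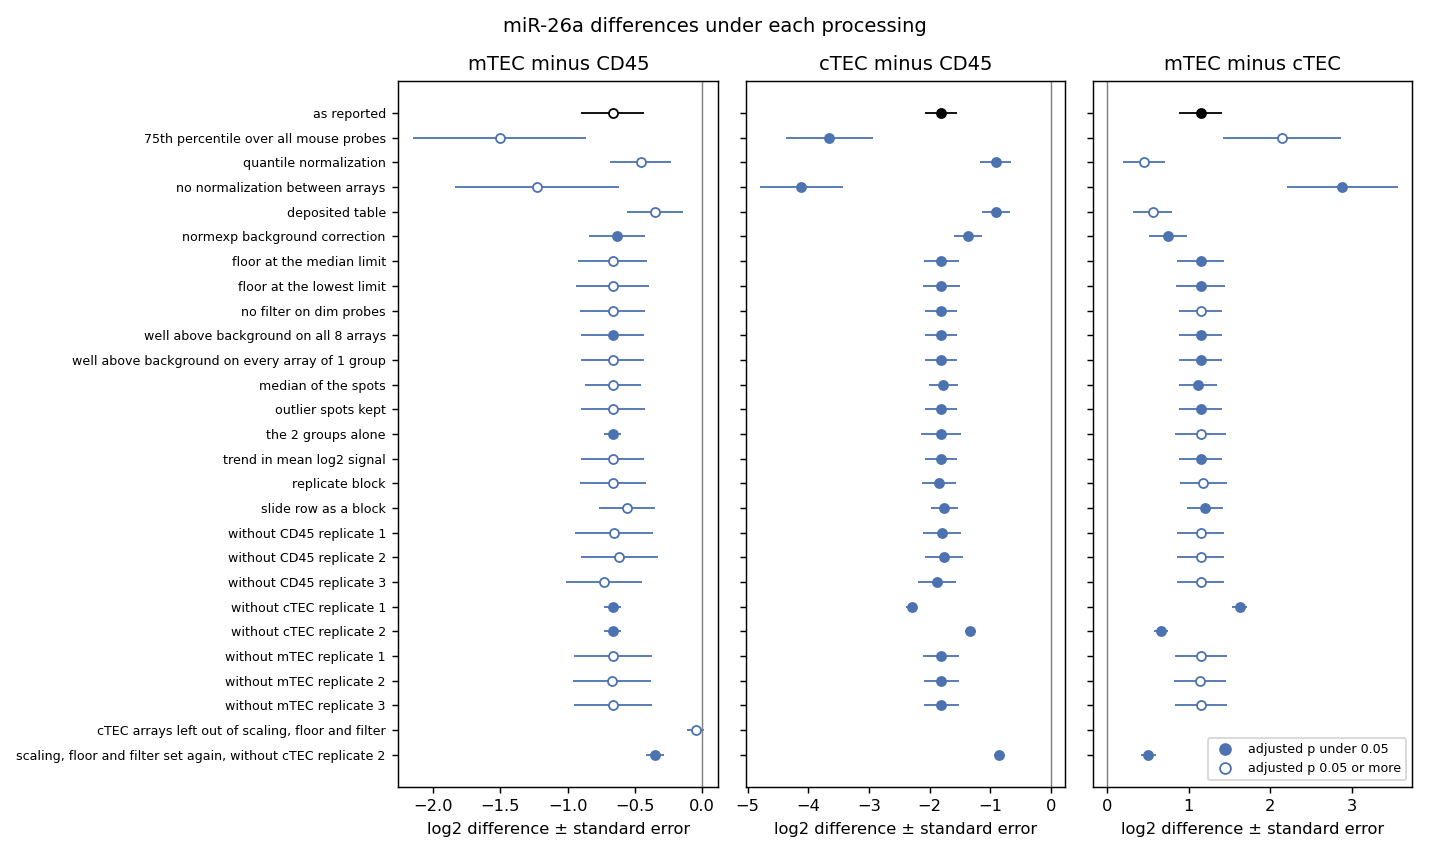
Log2 difference of miR-26a with its standard error (horizontal axis) in the 3 comparisons under the processing as reported and each alternative (vertical axis); filled points have an adjusted p under 0.05. All points for cTEC minus CD45 are filled and lie between -4.12 and -0.85, whereas those for mTEC minus CD45 lie between -1.51 and -0.048 and 6 of the 26 alternatives are filled.

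The leukocyte markers moved with miR-26a between CD45+ cells and both epithelial populations, as given above. Between mTECs and cTECs their sums overlapped and single members went different ways. miR-155 was higher in mTECs, with a scaled signal of 1308 to 2184 against 345 and 820 in cTECs, whereas the miR-142-3p signals overlapped (299.9 to 549.5 in mTECs, 306 and 599.99 in cTECs) and only the mTEC ones were well above background, the cTEC detection limits being 342 and 621. miR-150 was lower in mTECs (297 to 342 against 542 and 769), and miR-181a made up most of the sum on cTEC replicate 1 (3615). Of the 2 endothelial miRNAs, miR-126-5p was well above background on 0 arrays. Their summed signal was 1527 to 2755 in cTECs, 497 to 550.1 in mTECs and 212 to 295 in CD45+ cells, and was thus highest in the cells where miR-26a was lowest. The endothelial miR-126-3p was called higher in cTECs than in CD45+ cells (1.38, limma adjusted p = 0.0335) and lower in mTECs than in cTECs (-1.38, adjusted p = 0.0421), in a fit where its CD45+ and mTEC means stood at the floor. The part of these markers in the differences of miR-26a was not tested. In such sorted bulk samples, fewer cells of a type that carries a miRNA and less of it per cell cannot be told apart. The position of the arrays on the slide did not separate the groups. Within the first row of the slide the log2 difference of miR-26a, with no floor, was -1.39 for cTEC minus CD45+, -0.73 for mTEC minus CD45+ and 0.66 for mTEC minus cTEC. Within the second row these were -2.17, -0.54 and 1.63, with 1 or 2 arrays of a group in a row.

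miR-26b was the dim member and was measured near the detection limit. In CD45+ cells its scaled signal was 370.5, 439 and 339.7, a mean of 383 ± 50.7 (SD, n = 3), and all 5 spots were well above background on each array. In mTECs it was 165, 222 and 201, a mean of 196 ± 28.9 (SD, n = 3). It was well above background on mTEC replicates 1 and 3, and on 0 of 5 spots of mTEC replicate 2. In cTECs it was 354 and 639, with 2 of 5 spots well above background on each array, so that it was not well above background on either.

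The mTEC arrays lay below all CD45+ arrays for miR-26b. With no floor, the log2 difference, mTEC minus CD45+, was -0.98, and the two-sided exact permutation p was 0.1, the smallest possible. This value includes mTEC replicate 2, where miR-26b was not well above background, so it is no more than an estimate. Over the other 2 mTEC arrays, a choice made after the data were seen, it was -1.08 (exact permutation p = 0.1, the smallest possible). The 29.8% of miRNAs that lay below in this way is the background for that statement too. With the scaling set by the CD45+ and mTEC arrays alone, and still no floor, the log2 difference was -0.37 and the arrays did not overlap (exact permutation p = 0.1). In the limma fit of that setting, with a floor set by the same 6 arrays, it was -0.15 and not called (adjusted p = 0.148). That setting too was chosen after the data were seen. In the limma fit, both populations were at the floor of 621, so the fitted difference was 0 (adjusted p = 1) and says nothing of the levels beneath it. With the floor lowered to the median limit of the arrays, a scaled signal of 129, the log2 difference was -0.98 (SE 0.27, limma adjusted p = 0.0188).

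No fold against cTECs can be given for miR-26b. The detection limit of the cTEC arrays (mean 8.86 on the log2 scale) was above the mean level in CD45+ cells (8.57) and in mTECs (7.58). The limma fit, in which cTEC replicate 2 alone lay above the floor, gave 0.063 for cTEC minus CD45+ and -0.063 for mTEC minus cTEC, with adjusted p = 0.307 and 0.360, and nothing is read from these values.

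The passenger strands, the opposite arms of the hairpins, had probes as well. miR-26a-1*, miR-26a-2* and miR-26b* were well above background on 0 of 8 arrays. Their scaled signals lay between -111 and 124 on all arrays other than cTEC replicate 2. On cTEC replicate 2 they were 195, 405 and 34.3. These probes near background thus read higher on the array where miR-26b read 639, with no spot of the 3 probes flagged well above background there, and the part of this in the miR-26b value was not tested.

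Within an array the scaling cancels, so the change of the members can be compared without it. The log2 ratio of the miR-26a probe to the miR-26b probe was 3.58, 3.41 and 3.56 in CD45+ cells, 4.07, 3.66 and 3.77 in mTECs and 2.35 and 0.50 in cTECs. The size of this ratio has no meaning as a level, since different probes differ in brightness, and only its differences between populations are read. From CD45+ cells to mTECs the ratio differed by 0.32 (exact permutation p = 0.1, no overlap). This value includes mTEC replicate 2, where miR-26b was not well above background. It was 0.20 without mTEC replicate 1 and 1.02 with quantile normalization. The sign turned in the deposited table (-0.17) and with normexp (-0.068, exact permutation p = 0.7). From CD45+ cells to cTECs it differed by -2.09 (-1.16 without cTEC replicate 2 and -3.02 without cTEC replicate 1). From cTECs to mTECs it differed by 2.41 (1.48 and 3.34 without these). Both cTEC values rest on miR-26b signals not well above background, and no change is read from them. Between CD45+ cells and mTECs, the direction of any unequal change of the members thus depended on the processing.

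Other miRNAs with a profile like that of miR-26a were sought among the 64 others well above background on all 8 arrays. The measure was the root mean square difference of log2 scaled signals over the 8 arrays, after each profile was centred on its own mean, and it is given as a description. The closest were let-7g (0.203) and miR-24 (0.203), followed by miR-23a (0.259), let-7i (0.326) and let-7d (0.335), against a median of 1.26 and a largest value of 2.62. let-7g, let-7i and let-7d belong to the let-7 family, which represses growth and fetal genes, and miR-23a and miR-24 are broadly expressed miRNAs. The log2 difference cTEC minus CD45+ was -1.82 for let-7g, -1.81 for miR-24, -1.48 for miR-23a, -2.26 for let-7i and -1.68 for let-7d. For mTEC minus CD45+ it was -0.90 for let-7g, -0.31 for miR-24, -0.46 for miR-23a, -1.08 for let-7i and -1.12 for let-7d. All 5 were ordered CD45+, mTEC, cTEC by their means, which the choice of profiles close to miR-26a nearly fixes, and miR-24 and miR-23a stood nearest to CD45+ cells in mTECs.

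**Figure D3:**
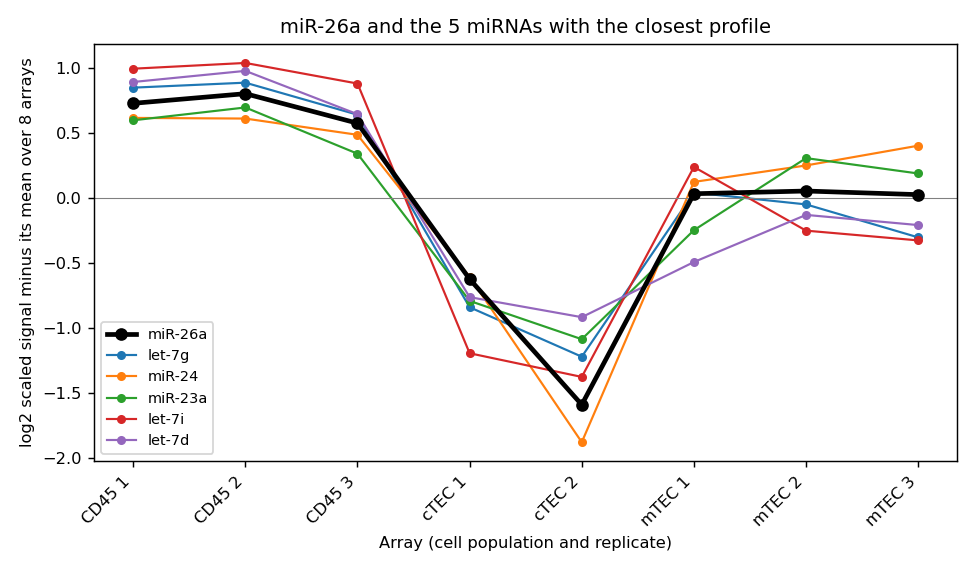
Log2 scaled signal of miR-26a and of the 5 miRNAs closest to it, each minus its own mean over the 8 arrays (vertical axis), for each array (horizontal axis). All 6 lines are highest on the CD45+ arrays and lowest on the cTEC arrays; let-7g and miR-24 lie 0.203 from miR-26a by root mean square.

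The same search for miR-26b is not reported, because miR-26b was well above background on 5 of the 8 arrays only.

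The wider setting of the family was described with 2 lists of miRNAs, from which the members were left out. Of 24 other miRNAs known to be repressed by MYC, 17 fell in cTECs against CD45+ cells and 2 rose. Over all 309 miRNAs, 20.1% were called lower and 10.7% higher in this comparison. The median log2 difference of the list was -1.53, beside 0 over all 309. That 0 became 0.027 without the 83 miRNAs at the floor on all arrays. Over the 65 detected on all 8 arrays the median was 0.47. With the percentile over all mouse probes 19 fell and 0 rose, with a median of -3.37. With no normalization 19 fell and 0 rose, with a median of -3.83. After quantile normalization 13 fell and 3 rose, with a median of -1.05. Over all miRNAs tested, these settings in turn gave 114, 111 and 71 called lower and 6, 2 and 45 called higher. As scaled here, the largest fall among the 24 was that of miR-29a, which represses collagens (-3.09, limma adjusted p = 0.000672). The largest rise was that of let-7b (1.27, adjusted p = 0.00257), but this turned to -0.60 with the percentile taken over all mouse probes and to -1.06 with no normalization. In mTECs against CD45+ cells, 9 of the 24 fell and 3 rose, with a median of -0.28. Over all 309 miRNAs, 14.9% were called lower and 9.06% higher there. With scaling, floor and filter set again without cTEC replicate 2, 6 fell and 5 rose with a median of 0.011, and with the percentile over all mouse probes 8 fell and 0 rose with a median of -1.12. miR-150, which is abundant in lymphocytes, had the largest fall. Its scaled signal was 3119 to 3971 in CD45+ cells and 297 to 342 in mTECs, well above background on all 6 arrays, a log2 difference of -3.50 with no floor. In the fit the mTEC arrays stood at the floor, so its -2.50 (adjusted p = 1.8e-05) understates the difference. miR-34a, a target of p53, rose (1.84, adjusted p = 0.000166). The rise of miR-34a missed the threshold with the percentile over all mouse probes (1.00, adjusted p = 0.142) and with no normalization (1.28, adjusted p = 0.104). In mTECs against cTECs, 16.2% of all 309 miRNAs were called higher and 6.47% lower. Of the 24, 13 rose and 0 fell, led by miR-34a (3.40 in the fit, adjusted p = 4.35e-05). Its scaled signal was 5487 to 8139 in mTECs and 449 and 489.7 in cTECs, where 1 of 2 arrays was well above background and both were set to the floor, so the 3.40 depends on that floor. With the percentile over all mouse probes 5 rose, with quantile normalization 4 rose and 2 fell, and with scaling, floor and filter set again without cTEC replicate 2, 8 rose and 2 fell.

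Among 13 miRNAs known to target Ezh2, the histone methyltransferase that miR-26 also targets, 11 were tested, and 9 of these are let-7 family members (miR-98 included) that the MYC list holds too. In cTECs against CD45+ cells 5 fell and 2 rose, led by let-7i (-2.26, adjusted p = 0.000154) and let-7b, and without cTEC replicate 1, 5 fell and 5 rose. In mTECs against CD45+ cells 4 fell, led by let-7f (-1.19, adjusted p = 0.00104), and 2 rose, led by let-7b (1.29, adjusted p = 0.00171), but with scaling, floor and filter set again without cTEC replicate 2, 2 fell and 3 rose. The rise of let-7b in mTECs missed the threshold with the percentile over all mouse probes (0.45, limma adjusted p = 0.699). It also missed it with no normalization (0.72, adjusted p = 0.415), but was kept after quantile normalization (1.47, adjusted p = 4.75e-05). In mTECs against cTECs 4 rose and 0 fell, led by let-7i (1.17, adjusted p = 0.00412). The let-7i call was lost with the percentile over all mouse probes (2.15, adjusted p = 0.0981), under quantile normalization (0.68, adjusted p = 0.0522) and with the settings made again without cTEC replicate 2 (0.92, adjusted p = 0.0831). The list had 0 called either way with that percentile, and 0 rose and 1 fell under quantile normalization and with the settings made again. The medians were 0, 0 and 0.17. The let-7 members changed in both directions against CD45+ cells as scaled here, but 0 of the list rose in either comparison with the percentile over all mouse probes or with no normalization. Without cTEC replicate 1, 3 rose and 3 fell in mTECs against cTECs, and without cTEC replicate 2, 2 rose and 1 fell.

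Over all 309 miRNAs, 20.1% were called lower and 10.7% higher in cTECs against CD45+ cells, 14.9% lower and 9.06% higher in mTECs against CD45+ cells, and 16.2% higher and 6.47% lower in mTECs against cTECs. This split depended on the processing. Higher in cTECs than in CD45+ cells were 33 of 95 calls as reported, 2 of 113 with no normalization, 6 of 120 with the percentile over all mouse probes, 110 of 170 without cTEC replicate 1 and 197 of 250 with normexp. Higher in mTECs than in CD45+ cells were 28 of 74 as reported, 18 of 110 with that percentile, 67 of 118 with normexp and 72 of 110 with the cTEC arrays left out of scaling, floor and filter. Higher in mTECs than in cTECs were 50 of 70 as reported, 45 of 201 with normexp, 47 of 147 without cTEC replicate 1, 32 of 69 after quantile normalization, 38 of 39 with that percentile and 73 of 73 with no normalization. The median log2 difference over the 65 miRNAs detected on each of the 8 arrays moved with the scaling too. For cTEC minus CD45+ it was 0.47 as reported, -0.78 with the percentile over all mouse probes, -1.23 with no normalization and 1.14 after quantile normalization. For mTEC minus cTEC these were -0.25, 0.56, 1.29 and -0.88, and for mTEC minus CD45+ 0.024, -0.50, -0.22 and 0.030. The difference of miR-26a lay within the range of each list in each comparison.

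**Figure D4:**
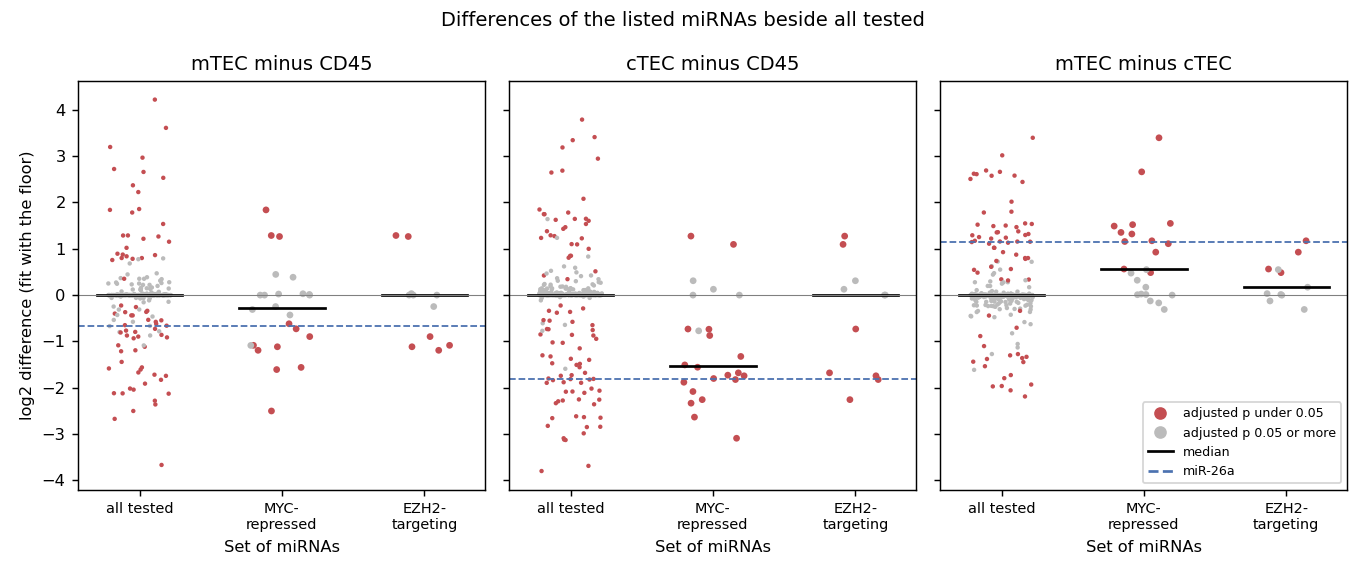
Log2 difference in the limma fit (vertical axis) of each miRNA among all 309 tested and in the 2 lists (horizontal axis), for the 3 comparisons; red points have an adjusted p under 0.05, black bars are medians and the dashed line is miR-26a. The medians of the MYC-repressed list are -0.28, -1.53 and 0.56, and those of all tested miRNAs are 0 in each panel. Of the 309, 83 lay at the floor on all arrays.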

How the data were processed

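Labelled RNA of the 8 sorted samples was hybridised to custom miRNA arrays. The authors deposited the scanner's spot intensity (Feature Extraction 10.7.3.1, with background-subtracted processed signals) and quantile-normalized log2 intensities in 1 table, which also holds their own fold changes and p-values, not used here. Both were read here in R 4.3.3 with limma 3.58.1. Outlier spots (1.09% to 1.85%) were left out, and 0 spots were saturated. Processed signals were scaled, set to the floor of 621, put on the log2 scale and averaged over the spots of a probe. To be tested, a miRNA needed detection well above background, by most of its spots, on 2 or more arrays. Of the 309 tested, 83 lay at the floor on all arrays and were kept in the adjustment as not changed. All 8 arrays were fitted in 1 model, and calls are at an adjusted p under 0.05. In simulated data made for the mTEC against CD45+ comparison, the fit recovered 45 of 60 miRNAs changed by 2 on the log2 scale, including 9 of 9 well over the floor, and called 3 of 249 unchanged. All simulated arrays had the same spread, and as many miRNAs rose as fell. The simulation therefore cannot show how the fit behaves with the wider spread of the cTEC arrays (median SD 0.34 against 0.11 in CD45+ cells) or with changes mostly in 1 direction. Named miRNAs are the members, their passenger strands, the 5 profiles closest to miR-26a (the rule also covered miR-26b, whose search is not reported) and the called list members with the largest change each way. The members and lists were chosen with earlier results of these data known. The files held no mean spot signal, so the normexp alternative used the median signal and its background (offset 50). A further list of miRNAs is not reported here.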

Additional observations from a re-analysis of the deposited data

How the results depend on the processing

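Under every alternative run (25), miR-26a stayed lower and called in cTECs against CD45+ cells, with log2 differences of -4.12 to -0.85, and of -2.29 to -1.33 with 1 array left out. For miR-26a in mTECs against CD45+ cells all 26 alternatives were below 0, and 6 were called: normexp (-0.63), the filter that keeps probes detected on all 8 arrays (-0.66), the 2 groups alone (-0.66), either cTEC array left out, and scaling, floor and filter set again without cTEC replicate 2 (-0.349); leaving out 1 array gave -0.73 to -0.61. For miR-26a in mTECs against cTECs the call was lost in 12 of 25: the percentile over all mouse probes (2.15), the table as deposited (0.556), quantile normalization (0.454), dim probes kept (1.15), the 2 groups alone (1.15), the replicate block (1.18) and each CD45+ and mTEC array left out; leaving out 1 array gave 0.66 to 1.63. miR-26b in mTECs against CD45+ cells became called without normalization (-1.40), with the percentile over all probes (-1.30), quantile normalization (-0.338) and the deposited values (-0.176), and with the median and lowest floors (-0.98 each). In cTECs against CD45+ cells it reversed without normalization (-1.62), with the percentile over all probes (-1.24), in the deposited table (-0.193) and after quantile normalization (-0.152), the first 3 being called in that direction (adjusted p = 0.00551, 0.00152 and 0.00467), and was called higher with normexp (0.78) and with settings made again without cTEC replicate 2 (0.174); leaving out 1 array gave 0 to 0.126, called without cTEC replicate 1. In mTECs against cTECs it reversed with no normalization (0.227) and the deposited table (0.0168), and was called with normexp (-1.34), the median and lowest floors (-1.26 each) and settings made again without cTEC replicate 2 (-0.174); leaving out 1 array gave -0.126 (called, without cTEC replicate 1) to 0. The cause was not tested, except that under lower floors miR-26b is read beneath the floor of 621. The unequal change of the members, mTEC against CD45+, was 1.02 with quantile normalization, -0.173 in the deposited table, -0.0682 with normexp and -0.66 with the floor of the fit, which is the difference of miR-26a alone since miR-26b stands at the floor there; cTEC against CD45+ was -0.759 with quantile normalization and -0.712 in the deposited table, and mTEC against cTEC was 0.539 in the deposited table and 1.21 with the floor of the fit. Counts of called miRNAs (74, 95 and 70 for mTEC against CD45+, cTEC against CD45+ and mTEC against cTEC) moved most with normexp (118, 250 and 201), the median floor (115, 200 and 130), the lowest floor (140, 224 and 129) and the filter on all 8 arrays (31, 53 and 38); the deposited table gave 121 for mTEC against CD45+, the percentile over all probes 39 for mTEC against cTEC, and without cTEC replicate 1 the counts were 170 against CD45+ and 147 for mTEC against cTEC. The split of calls by direction, given above, moved with scaling, floor and background correction; the median over all miRNAs, many of them at the floor, shifted by -0.117 with the percentile over all probes and -0.43 with no normalization for cTEC against CD45+, and by 0.41 with no normalization for mTEC against cTEC. Same-numbered arrays deviated together with r from -0.308 to 0.362 over 65 miRNAs, and 5 of 8 arrays correlated best with their own number, so the numbers were not taken as pairs; the replicate block gave 69, 86 and 60 called miRNAs. The dim cTEC arrays limit miR-26b, and the number of arrays all values.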
